A study of Mus musculus with 12 samples.

Results

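The nuclear genes for subunits of the mitochondrial respiratory chain (complexes I to IV) and of the ATP synthase (complex V) were followed in polarized mouse macrophages. Genes were chosen by symbol (Nduf, Sdh, Uqcr, Cox4 to Cox8 and Atp5 names) and by level, a mean of at least 1 FPKM (fragments mapped to a transcript, per length of the transcript and per size of the library) over the 12 libraries. Of 84 symbols that matched, 78 passed, among 23863 genes in the table: 36 for complex I, 4 for complex II, 8 for complex III, 13 for complex IV and 17 for complex V. The 6 below the minimum were *Cox4i2*, *Cox6b2*, *Cox7b2*, *Cox8b*, *Cox8c* and *Ndufa4l2*, mostly known as tissue-restricted isoforms. Just inside the minimum stood *Atp5s* with a mean of 1.22 FPKM and *Cox6a2* with 3.08 FPKM, and just outside stood *Cox6b2* with 0.0955 FPKM and *Cox4i2* with 0.0879 FPKM. *Atp5s* passed only through its M2 libraries (1.37 to 1.93 FPKM, against 0.75 to 1.04 FPKM in M1), so its difference follows in part from the choice.

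Complexes I and II take electrons from NADH and succinate and pass them through ubiquinone to complex III, cytochrome c and complex IV, which reduces oxygen. Complexes I, III and IV pump protons across the inner mitochondrial membrane, and complex V uses the returning protons to make ATP. In mouse macrophages, stimulation with lipopolysaccharide (LPS) and interferon-gamma (IFNγ) is known for high glycolysis and a restrained respiratory chain, whereas interleukin-4 (IL-4) activation is known for reliance on oxidative phosphorylation. Of the chosen symbols, 4 do not name a subunit of the complex that the symbol gives: *Ndufa4* is now assigned to complex IV, *Cox7a2l* is a factor that joins complexes into supercomplexes, and *Atp5s* and *Atp5sl* are related to coupling or assembly factors.

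RNA was sequenced from cultured bone marrow-derived macrophages of *Mirc11-/-* and wildtype C57BL/6 mice aged 6 to 8 weeks. *Mirc11-/-* mice (also named mirn23a-/-) lack the cluster that encodes miR-23a, miR-27a and miR-24-2. Marrow of both genotypes was grown for 7 days with L929-conditioned medium as the source of M-CSF, replated overnight and treated for 24 h. The M1 treatment was 100 ng/ml LPS with IFNγ, given as 50 ng/ml in the protocol and as 10 ng/ml in the treatment field, and the M2 treatment was 20 ng/ml IL-4 with 20 ng/ml IL-13. The 4 groups of 3 libraries were *Mirc11-/-* M1, wildtype M1, *Mirc11-/-* M2 and wildtype M2, with no unstimulated cells, so a gene lower in M1 may equally be called higher in M2. Nothing in the labels says that the libraries of a group came from separate mice, so the p-values may cover technical spread alone. *Mirc11-/-* and wildtype libraries carry different numbers in their titles (Ako2271 and Wt2260 onward), so genotype and whatever those numbers mark cannot be told apart.

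The libraries went by their titles, with which the treatment field disagrees for 6 of the 12. *Nos2*, which makes nitric oxide in M1 cells, stood at 938 to 1630 FPKM in every library titled M1 and at 0.80 to 2.26 FPKM in every library titled M2, and *Mrc1*, a mannose receptor of M2 cells, at 0.12 to 0.40 FPKM in M1 and 230 to 301 FPKM in M2. The deleted miRNA genes do not check the genotype, since *Mir23a* and *Mir24-2* were listed at 0 in all 12 libraries and *Mir27a* at 0 in 11. Depth is unknown, and 14366 to 14708 genes were above 0 per library. Macrophage markers (7 of 8 in the table) summed to 3342 to 3597 FPKM in M1 and 2856 to 3215 FPKM in M2. The 7 neutrophil markers in the table, mostly *S100a8*, summed to 28.4 to 74.7 FPKM in M1 and 1.38 to 5.93 FPKM in M2, and 4 endothelial markers to 8.60 to 15.3 FPKM in M1 and 5.06 to 9.10 FPKM in M2. Markers of B, T and NK, mast and erythroid cells and fibroblasts summed to at most 1.90 FPKM in any library. The part of these markers in the results below was not tested. The table lists *Fth1*, the ferritin heavy chain, at 0 in every M1 library and at 18639 to 25879 FPKM in M2, and since every cell uses this gene, that 0 may be a failed estimate.

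Summed over the 78 genes, the level was lower in M1 than in M2 macrophages of both genotypes. The sum averaged 8542 ± 622 FPKM in *Mirc11-/-* M1, against 12627 ± 947 FPKM in *Mirc11-/-* M2 (SD, n = 3 each). In wildtype it averaged 8409 ± 621 FPKM in M1, against 12085 ± 342 FPKM in M2 (SD, n = 3 each). All 6 M1 libraries (7908 to 9220 FPKM) lay below all 6 M2 libraries (11702 to 13635 FPKM). As a share of all FPKM in a library, the 78 genes took 1.73% ± 0.0758 in *Mirc11-/-* M1 and 2.47% ± 0.0809 in *Mirc11-/-* M2, and 1.74% ± 0.0626 in wildtype M1 and 2.40% ± 0.0497 in wildtype M2 (SD, n = 3 each). In bulk RNA, fewer cells of a type and less RNA per cell cannot be told apart.

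Every complex showed this in its summed level. The M1 sum was 0.666 of the M2 sum for complex I, 0.678 for complex II, 0.647 for complex III, 0.709 for complex IV and 0.664 for complex V in *Mirc11-/-* cells. In wildtype cells the same ratios were 0.718, 0.676, 0.680, 0.719 and 0.662 for complexes I to V. In no complex did a library titled M1 reach a library titled M2.

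**Figure D1:**
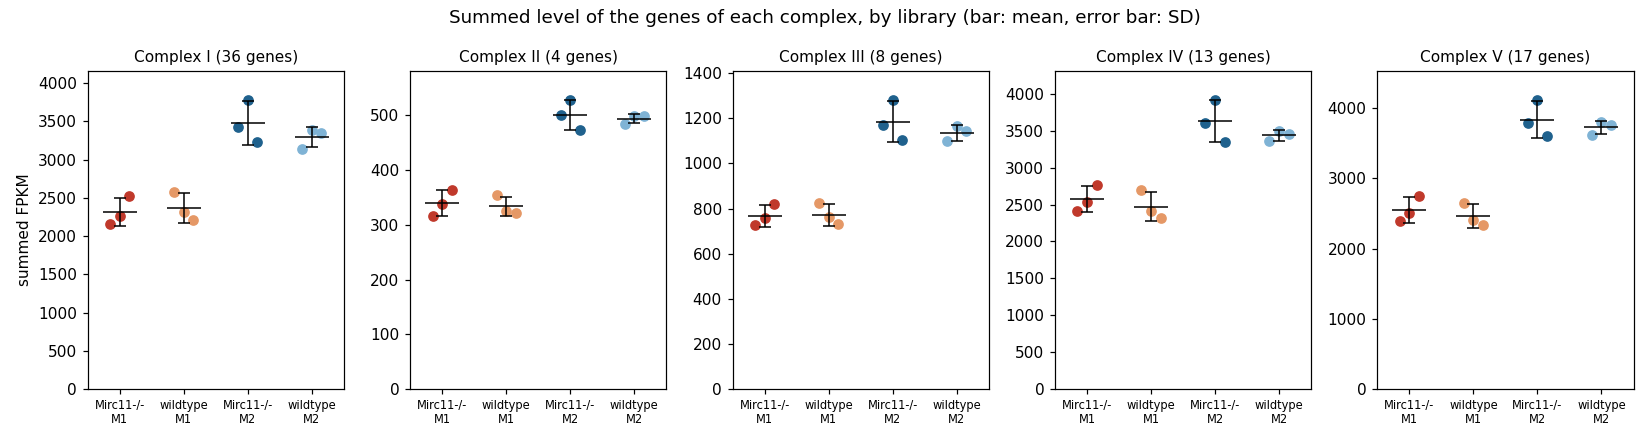
Summed FPKM of the genes of each complex (vertical axes, from 0) by library, for *Mirc11-/-* M1, wildtype M1, *Mirc11-/-* M2 and wildtype M2; points are libraries, bars the mean and error bars the SD (n = 3). In each of the 5 panels the 6 M1 points lie below the 6 M2 points, and the 2 genotypes overlap within M1 and within M2.

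Gene by gene, 74 of the 78 were called lower and 1 higher in M1 than in M2 in *Mirc11-/-* cells, and likewise 74 lower and 1 higher in wildtype cells. The same 74 genes were called lower in both genotypes. The log2 changes of the genotypes come from separate libraries. The spread of each gene was estimated from all libraries together, so the calls of the genotypes are not independent of each other. The gene that rose in both was *Ndufs4*. The others were *Ndufs5*, *Ndufv3* and *Cox7a2*. A call here is an adjusted p under 0.05 from limma on log2(FPKM + 1), adjusted by Benjamini-Hochberg over the 10137 genes tested. Among all genes tested, 54.0% were called lower and 26.0% higher in *Mirc11-/-* cells, and 52.0% lower and 26.6% higher in wildtype cells. The median change of the 78 genes (M1 minus M2, log2) was -0.54 in *Mirc11-/-* cells and -0.50 in wildtype cells, beside -0.21 and -0.19 over all genes tested in the same comparisons. The 78 genes were chosen with earlier results of these data known, so these counts describe them and are not a test of the group. All M1 libraries lay below all M2 libraries for 75 of the 78 genes in *Mirc11-/-* cells and 72 in wildtype cells. They lay above for 1 gene and 2 genes. Over all genes tested, 54.4% lay below and 26.6% above in *Mirc11-/-* cells, and 53.4% and 27.3% in wildtype cells. Genes named below for the largest change in a complex were picked among those without overlap in wildtype cells, so that separation follows from the choice.

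The calls depend on how the libraries are scaled, since the deposited values place the median gene lower in M1. Median-of-ratios scaling, which sets each library by its typical gene, moved the median of all genes to 0.02 in *Mirc11-/-* cells and 0.01 in wildtype cells. The 78 genes then had a median of -0.28 in both genotypes, with 51 lower and 2 higher in *Mirc11-/-* cells and 46 lower and 3 higher in wildtype cells. Over all genes, that scaling called 37.9% lower and 40.2% higher in *Mirc11-/-* cells and 37.5% lower and 39.6% higher in wildtype cells. Under it, 4 called genes had the opposite sign in *Mirc11-/-* cells (*Atp5b*, *Ndufb9*, *Sdhd*, *Uqcrc2*) and 4 in wildtype cells (*Ndufa11*, *Ndufs3*, *Sdhd*, *Uqcrc2*). Quantile normalization, which gives every library the same distribution, called 70 of the genes lower in *Mirc11-/-* cells (4098 of all genes lower and 3824 higher) and 72 in wildtype cells (4088 lower and 3779 higher), and turned no called gene round.

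**Figure D2:**
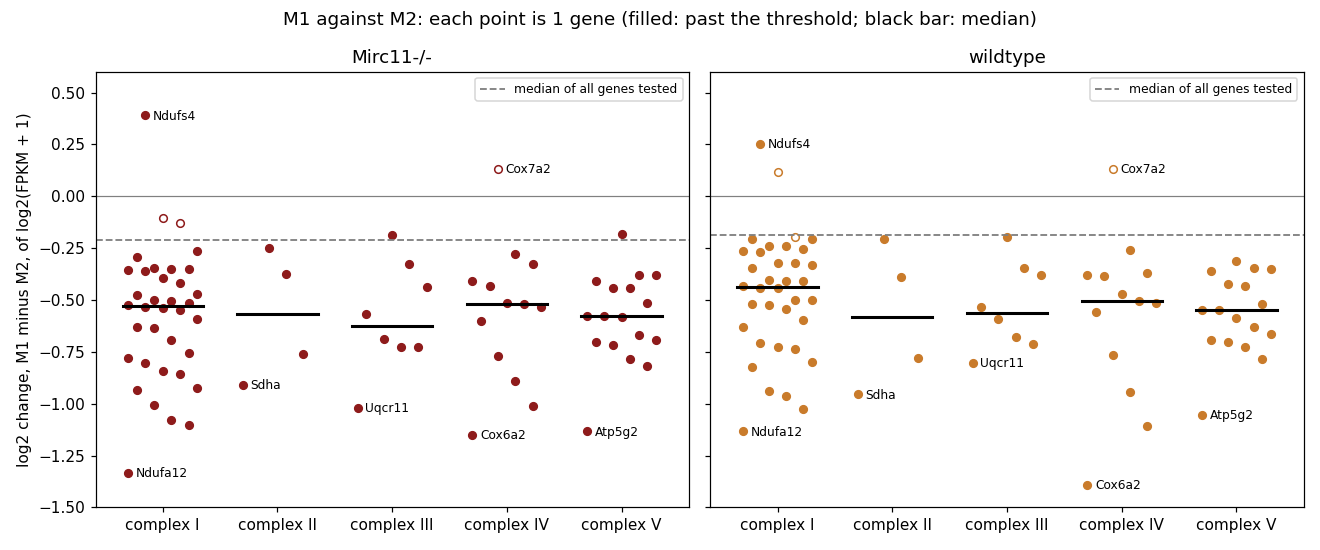
log2 change of log2(FPKM + 1), M1 minus M2, of each gene by complex in *Mirc11-/-* (left) and wildtype (right) cells; filled points passed the threshold, black bars are medians of a complex and the dashed line is the median of all genes tested (-0.21 and -0.19). Every complex has its median below the dashed line, and *Ndufs4* is the filled point above 0 in both panels.

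The promoters of the genes that changed most in complexes V and III, and of the gene that rose, are shown because they carry sites named for regulators of respiratory genes. Those of *Ndufa12* and *Sdha*, which changed most in complexes I and II, held none of the letters searched and are not shown. The letters searched, on both strands from 250 bases before to 50 after each RefSeq start, were GCATGCGC for NRF1, CCGGAAG for the ETS family factor GABPA, AAGATGGC for YY1 and AAGGTCA for ERR alpha. The windows below are from GRCm38.p6, 5′ to 3′ along the gene, with matches in capitals.
Atp5g2 (chr15:102670998-102671297, minus strand, overlapping NRF1 matches on both strands): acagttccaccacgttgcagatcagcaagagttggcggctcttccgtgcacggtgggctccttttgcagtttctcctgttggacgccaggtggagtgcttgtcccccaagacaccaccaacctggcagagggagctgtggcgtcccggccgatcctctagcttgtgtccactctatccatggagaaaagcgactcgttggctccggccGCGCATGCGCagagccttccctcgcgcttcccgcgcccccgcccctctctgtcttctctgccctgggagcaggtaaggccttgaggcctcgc
Uqcr11 (chr10:80406772-80407071, minus strand, an ETS and an NRF1 match): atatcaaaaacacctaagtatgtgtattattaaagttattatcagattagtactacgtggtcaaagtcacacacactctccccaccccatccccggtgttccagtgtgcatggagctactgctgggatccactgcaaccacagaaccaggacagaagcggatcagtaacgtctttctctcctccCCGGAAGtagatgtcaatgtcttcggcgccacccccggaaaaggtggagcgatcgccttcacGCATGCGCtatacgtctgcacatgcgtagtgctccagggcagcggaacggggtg
Ndufs4 (chr13:114388045-114388344, minus strand, a YY1 match): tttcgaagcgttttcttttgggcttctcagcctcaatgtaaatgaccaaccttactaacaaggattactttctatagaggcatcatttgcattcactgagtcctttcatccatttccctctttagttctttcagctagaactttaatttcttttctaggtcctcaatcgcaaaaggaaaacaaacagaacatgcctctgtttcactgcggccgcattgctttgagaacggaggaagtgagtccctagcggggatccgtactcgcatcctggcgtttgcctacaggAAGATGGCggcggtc

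These letters were common among the genes. RefSeq windows were found for 66 of the 78 genes (72 windows), and 36 of the 72 held a match, 50.0%, beside 29.4% of 9873 windows of tested genes and 17.6% of all 32851 windows of this length. By factor, 22.2% of the windows held the ETS letters (19.2% of tested genes' windows, 8.86% of all), 13.9% those of NRF1 (5.58% and 2.71%), 16.7% those of YY1 (4.96% and 2.75%) and 11.1% those of ERR alpha (3.10% and 4.72%). In wildtype cells the median change, M1 minus M2, was -0.47 for 10 genes with the NRF1 letters and -0.50 for 56 without, -0.51 for 16 with the ETS letters and -0.50 for 50 without, -0.36 for 11 with the YY1 letters and -0.52 for 55 without, and -0.60 for 8 with the ERR alpha letters and -0.49 for 58 without. A match is a description and not a bound site, and these medians were not tested.

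Complex I, the NADH dehydrogenase, had 33 of its 36 genes lower and 1 higher in M1 in each genotype, with a median of -0.53 in *Mirc11-/-* and -0.44 in wildtype cells. Of all genes tested, 54.0% were called lower in *Mirc11-/-* and 52.0% in wildtype cells. After median-of-ratios scaling, 24 of the 36 were lower and 1 higher in *Mirc11-/-* cells, and 18 lower and 2 higher in wildtype cells. That scaling called 37.9% and 37.5% of all genes lower. All 7 genes for core subunits, which carry the flavin and iron-sulfur centers, were lower (median -0.63 in *Mirc11-/-* and -0.52 in wildtype cells). Of 28 accessory subunit genes, 25 were lower in each genotype (median -0.51 and -0.41 in *Mirc11-/-* and wildtype cells).

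*Ndufa12*, an accessory subunit of the matrix arm, showed the largest change of the complex in wildtype cells. It had 33.8, 33.3 and 41.6 FPKM in *Mirc11-/-* M1, against 91.1, 98.3 and 87.8 FPKM in *Mirc11-/-* M2. In wildtype it had 44.1, 39.4 and 38.6 FPKM in M1, against 86.4, 89.8 and 94.7 FPKM in M2. The highest M1 library was below the lowest M2 library in both genotypes, as the choice of genes required in wildtype cells. The log2 change was -1.33 in *Mirc11-/-* cells (SE 0.085, limma adjusted p = 1.56e-08) and -1.13 in wildtype cells (adjusted p = 8.07e-08).

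*Ndufs8*, a core iron-sulfur subunit, behaved alike. It stood at 25.4, 27.0 and 29.3 FPKM in *Mirc11-/-* M1 and 59.5, 66.0 and 53.3 FPKM in *Mirc11-/-* M2, and at 29.4, 26.7 and 24.3 FPKM in wildtype M1 and 54.2, 50.4 and 54.5 FPKM in wildtype M2. Its change was -1.10 in *Mirc11-/-* and -0.96 in wildtype cells, with no overlap. *Ndufs7*, the core subunit that holds the last iron-sulfur cluster before ubiquinone, changed by -0.80 and -0.74 in *Mirc11-/-* and wildtype cells, whereas *Ndufs3*, another core subunit, changed by -0.29 and -0.21.

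The complex I gene with the highest mean, *Ndufa3* (214.8 FPKM over the 12 libraries), and the one with the lowest, *Ndufa11*, changed less. *Ndufa3* fell by 0.35 on the log2 scale in both genotypes, and after median-of-ratios scaling it did not pass, at -0.08 in *Mirc11-/-* cells (limma adjusted p = 0.438) and -0.11 in wildtype cells (adjusted p = 0.292). *Ndufa11* changed by -0.35 in *Mirc11-/-* cells and by -0.21 in wildtype cells, where its M1 and M2 libraries overlapped (limma adjusted p = 0.0357). That wildtype call was lost with no filter, with only the 2 groups compared, by quantile normalization and median-of-ratios scaling, and without any one of 5 of the 6 wildtype libraries (adjusted p from 0.0514 without Wt2262M2 to 0.162 without Wt2262M1), and the *Mirc11-/-* call was lost under both other scalings (limma adjusted p = 0.290 by median-of-ratios and 0.122 by quantile normalization). *Ndufs5* did not pass, at -0.10 in *Mirc11-/-* cells (limma adjusted p = 0.533) and -0.20 in wildtype cells (adjusted p = 0.246). *Ndufv3* did not pass either, at -0.13 in *Mirc11-/-* cells (limma adjusted p = 0.0791) and 0.12 in wildtype cells (adjusted p = 0.108). Other scalings called *Ndufv3*, higher in wildtype M1 by median-of-ratios (0.35, limma adjusted p = 0.000281) and by quantile normalization (0.12, adjusted p = 0.0351), and lower in *Mirc11-/-* M1 by quantile normalization (-0.12, adjusted p = 0.0347).

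*Ndufs4*, an accessory subunit of the matrix arm whose loss in mice is a model of Leigh syndrome, was called higher in M1 in both genotypes. It had 26.5, 27.1 and 28.3 FPKM in *Mirc11-/-* M1, against 19.9, 22.2 and 19.7 FPKM in *Mirc11-/-* M2. Wildtype libraries had 23.5, 21.3 and 21.7 FPKM in M1, against 17.6, 18.7 and 18.9 FPKM in M2. Within each genotype all M1 libraries were above all M2 libraries. The change was 0.39 in *Mirc11-/-* cells (SE 0.057, limma adjusted p = 3.97e-05) and 0.25 in wildtype cells (adjusted p = 0.00136), and larger under median-of-ratios scaling (0.65 and 0.48 in *Mirc11-/-* and wildtype cells).

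*Ndufa4* was lower in M1, and its known paralog moved the other way. *Ndufa4* stood at 114, 118 and 123 FPKM in *Mirc11-/-* M1 and 250.3, 254 and 214 FPKM in *Mirc11-/-* M2, and at 123, 111 and 107 FPKM in wildtype M1 and 217, 240.5 and 238 FPKM in wildtype M2 (change -1.01 in *Mirc11-/-* and -1.02 in wildtype cells). *AA467197*, also called *Nmes1*, codes for a related protein known from mouse macrophages to take the place of NDUFA4 in complex IV during inflammation. It had 78.9, 83.1 and 72.9 FPKM in *Mirc11-/-* M1 and 13.5, 12.8 and 9.41 FPKM in *Mirc11-/-* M2. In wildtype it had 123, 110 and 100.1 FPKM in M1 and 13.5, 18.8 and 11.4 FPKM in M2. Every M1 library was above every M2 library, with a change of 2.63 in *Mirc11-/-* cells (limma adjusted p = 9.88e-09) and 2.87 in wildtype cells (adjusted p = 4.58e-09). Between genotypes, the 3 *Mirc11-/-* M1 libraries lay below the 3 wildtype M1 libraries, as they did for 18.8% of all genes tested. The difference of -0.50 did not pass (limma adjusted p = 0.0582).

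**Figure D3:**
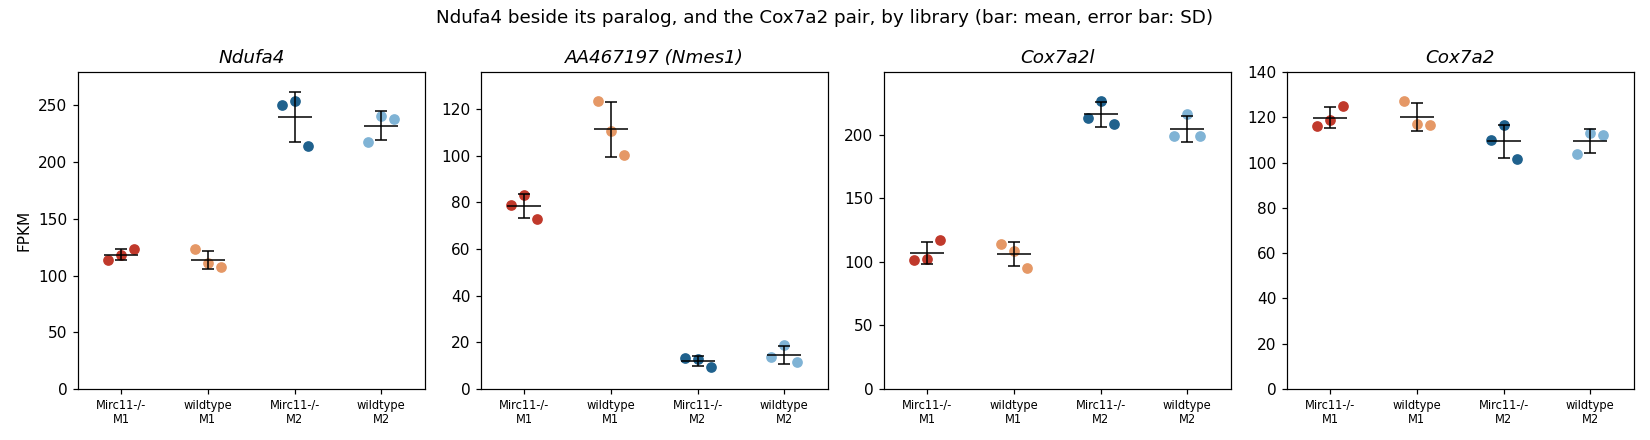
FPKM (vertical axes, from 0) by library of *Ndufa4*, its paralog *AA467197* (*Nmes1*), *Cox7a2l* and *Cox7a2* in *Mirc11-/-* M1, wildtype M1, *Mirc11-/-* M2 and wildtype M2; points are libraries, bars means and error bars SD (n = 3). *Ndufa4* and *Cox7a2l* are lower in all M1 libraries than in any M2 library, *AA467197* is higher, and *Cox7a2* stays between 102 and 127 FPKM.

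Complex II, succinate dehydrogenase, was lower in all 4 of its genes in both genotypes (median -0.57 in *Mirc11-/-* and -0.58 in wildtype cells). Of all genes tested, 54.0% were called lower in *Mirc11-/-* and 52.0% in wildtype cells. After median-of-ratios scaling 2 of the 4 were lower in each genotype, beside 37.9% and 37.5% of all genes. *Sdha*, the flavoprotein that oxidizes succinate, had 59.0, 58.1 and 60.0 FPKM in *Mirc11-/-* M1 and 114.5, 109 and 111.5 FPKM in *Mirc11-/-* M2. In wildtype it had 58.8, 58.4 and 56.6 FPKM in M1 and 112, 115 and 113 FPKM in M2. The values were tight within each group, and the change was -0.91 in *Mirc11-/-* (SE 0.041, limma adjusted p = 7.07e-10) and -0.95 in wildtype cells (adjusted p = 4.9e-10). *Sdhc*, a membrane anchor, fell by 0.76 in *Mirc11-/-* cells and 0.78 in wildtype cells on the log2 scale. *Sdhb*, the iron-sulfur subunit, changed by -0.38 and -0.39 in *Mirc11-/-* and wildtype cells and the other anchor *Sdhd* by -0.25 and -0.21, and neither passed after median-of-ratios scaling, where *Sdhd* stood at 0.02 in both genotypes. The enzyme holds its 4 subunits in equal numbers, and their mRNA levels per length lay between a mean of 82.1 FPKM (*Sdhd*) and 143.6 FPKM (*Sdhb*).

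All 8 complex III genes were lower in both genotypes (median -0.63 in *Mirc11-/-* and -0.56 in wildtype cells). Of all genes tested, 54.0% were called lower in *Mirc11-/-* and 52.0% in wildtype cells. After median-of-ratios scaling 5 of the 8 were lower in each genotype, beside 37.9% and 37.5% of all genes. *Uqcr11*, a small subunit, had 97.8, 99.5 and 107.6 FPKM in *Mirc11-/-* M1 and 202, 224 and 196 FPKM in *Mirc11-/-* M2. In wildtype it had 121, 114 and 101.5 FPKM in M1 and 188, 202 and 199.6 FPKM in M2. No M1 library came near an M2 library, and the change was -1.02 in *Mirc11-/-* and -0.80 in wildtype cells (SE 0.074 each). The core proteins parted: *Uqcrc1* changed by -0.73 and -0.71 in *Mirc11-/-* and wildtype cells, and *Uqcrc2*, which stands beside it in the complex, by -0.19 and -0.20, a change that turned to 0.08 and 0.03 under median-of-ratios scaling. *Uqcr10* changed by -0.69 and -0.68, and *Uqcrfs1*, the Rieske iron-sulfur protein, by -0.57 and -0.53, again with *Mirc11-/-* given before wildtype. *Uqcrq* had the highest mean level of the complex (189.4 FPKM) and changed by -0.44 in *Mirc11-/-* and -0.38 in wildtype cells, and passed in neither after median-of-ratios scaling (-0.17 and -0.15, limma adjusted p = 0.0611 and 0.0970 in *Mirc11-/-* and wildtype cells).

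Complex IV, cytochrome c oxidase, had 12 of 13 genes lower in each genotype (median -0.52 in *Mirc11-/-* and -0.51 in wildtype cells). Of all genes tested, 54.0% were called lower in *Mirc11-/-* and 52.0% in wildtype cells. After median-of-ratios scaling 8 of the 13 were lower and 1 higher in each genotype, beside 37.9% and 37.5% of all genes lower. Several subunits of complex IV exist as isoforms, of which the forms known from heart and muscle were nearly silent. *Cox6a2*, a muscle form, stood at 1.41, 1.22 and 1.46 FPKM in *Mirc11-/-* M1, against 4.52, 4.05 and 4.17 FPKM in *Mirc11-/-* M2, and at 1.46, 1.46 and 1.21 FPKM in wildtype M1, against 4.89, 6.98 and 4.14 FPKM in wildtype M2. The groups did not overlap, and its change on the log2(FPKM + 1) scale, which understates low genes, was -1.15 in *Mirc11-/-* (SE 0.126) and -1.39 in wildtype cells. The widely expressed *Cox6a1*, the most abundant gene of the complex with a mean of 480.5 FPKM, changed by -0.41 in *Mirc11-/-* and -0.38 in wildtype cells and did not pass under median-of-ratios scaling.

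In the Cox7a family *Cox7a2l* and *Cox7a1* were called lower in M1 and *Cox7a2* was not. *Cox7a2l* had 102, 102 and 117 FPKM in *Mirc11-/-* M1 and 213, 227 and 208 FPKM in *Mirc11-/-* M2, and 114, 109 and 95.4 FPKM in wildtype M1 and 199, 216 and 199 FPKM in wildtype M2. Its change was -1.01 in *Mirc11-/-* and -0.94 in wildtype cells. C57BL/6 mice are known to carry a shortened COX7A2L protein, which an mRNA level does not show. *Cox7a1*, the muscle form, had 1.93, 2.29 and 1.68 FPKM in *Mirc11-/-* M1 and 5.20, 4.47 and 3.85 FPKM in *Mirc11-/-* M2, and 2.33, 1.27 and 1.63 FPKM in wildtype M1 and 3.73, 5.19 and 5.83 FPKM in wildtype M2 (change -0.89 and -1.11 in *Mirc11-/-* and wildtype cells). *Cox7a2*, the widely expressed form, had 116, 119 and 125 FPKM in *Mirc11-/-* M1 and 110, 117 and 102 FPKM in *Mirc11-/-* M2, and 127, 117 and 116 FPKM in wildtype M1 and 104, 113 and 112 FPKM in wildtype M2. Its M1 and M2 libraries overlapped in *Mirc11-/-* cells and not in wildtype cells, and its change of 0.13 in each genotype did not pass (limma adjusted p = 0.0686 and 0.0719 in *Mirc11-/-* and wildtype cells), while both other scalings called it higher in M1 (0.40 and 0.36 by median-of-ratios, 0.14 in each genotype by quantile normalization). Of the remaining isoform pairs, *Cox4i1*, *Cox6b1* and *Cox8a* were lower in M1 in both genotypes (changes of -0.77, -0.33 and -0.51 in *Mirc11-/-* cells and -0.76, -0.38 and -0.47 in wildtype cells), of which *Cox6b1* did not pass after median-of-ratios scaling (-0.06 in *Mirc11-/-* and -0.15 in wildtype cells). Their partners *Cox4i2*, *Cox6b2* and *Cox8b* were under the minimum.

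Complex V, the ATP synthase, was lower in M1 in all 17 genes in both genotypes, the 2 that code for no subunit included (median -0.58 in *Mirc11-/-* and -0.55 in wildtype cells). Of all genes tested, 54.0% were called lower in *Mirc11-/-* and 52.0% in wildtype cells. After median-of-ratios scaling 12 of the 17 were lower in *Mirc11-/-* and 13 in wildtype cells, beside 37.9% and 37.5% of all genes. The membrane ring that the protons turn is built from 1 protein, subunit c, made from the genes *Atp5g1*, *Atp5g2* and *Atp5g3*. *Atp5g2* had 123, 131 and 148 FPKM in *Mirc11-/-* M1, against 291.5, 319 and 274 FPKM in *Mirc11-/-* M2. In wildtype it had 146, 138 and 127 FPKM in M1, against 287, 280.3 and 287 FPKM in M2. No library crossed between treatments, and the change was -1.13 in *Mirc11-/-* and -1.05 in wildtype cells (SE 0.079 each). *Atp5g1* changed by -0.82 and -0.73 and *Atp5g3* by -0.72 and -0.70 in *Mirc11-/-* and wildtype cells. The 3 genes share sequence, and reads common to them could have been split between them.

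In the catalytic head, *Atp5e* stood apart from *Atp5b*. *Atp5e*, the small epsilon subunit, had 238, 258.5 and 289 FPKM in *Mirc11-/-* M1 and 436, 491 and 426 FPKM in *Mirc11-/-* M2, and 283, 236 and 233 FPKM in wildtype M1 and 408, 436 and 450.3 FPKM in wildtype M2 (change -0.78 and -0.79 in *Mirc11-/-* and wildtype cells). *Atp5b*, the catalytic beta subunit and the most abundant gene of the complex (mean 377.1 FPKM), changed by -0.18 in *Mirc11-/-* and -0.31 in wildtype cells, and passed in neither under median-of-ratios scaling. Over the parts of the enzyme, the median change was -0.82 in *Mirc11-/-* and -0.73 in wildtype cells for the ring, -0.58 and -0.59 for the head, -0.58 and -0.55 for the accessory membrane subunits, and -0.40 and -0.44 for the peripheral stalk.

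In each group most of the genes stood above the group mean in the same library. In wildtype M1, library Wt2260M1 had all 78 genes above the mean of its group and Wt2262M1 had 1 of 78 above it. In *Mirc11-/-* M1, Ako2273M1 had 75 above and Ako2271M1 had 4, and in *Mirc11-/-* M2, Ako2272M2 had 74 above, Ako2271M2 33 and Ako2273M2 2. Wildtype M2 parted less, with 7, 65 and 48 above in Wt2260M2, Wt2261M2 and Wt2262M2. The median deviation of the 78 genes in a library ran between -0.10 and 0.11 on the log2 scale, while that of all genes ran between -0.0155 and 0.0145. The 78 calls are therefore not independent of each other.

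Genes around the complexes came from lists drawn up with earlier results known, and many were also lower in M1. Beside them, 54.0% of all genes tested were called lower in *Mirc11-/-* cells and 52.0% in wildtype cells. Among complex I assembly factors 14 of 15 were lower and 1 higher in *Mirc11-/-* cells and 13 lower and 1 higher in wildtype cells, led by *Tmem126b* (-1.40 and -1.13 in *Mirc11-/-* and wildtype cells). Mitochondrial ribosomal proteins counted 61 of 77 lower and 4 higher in *Mirc11-/-* cells and 55 lower and 4 higher in wildtype cells (median -0.38 and -0.35), and import channel genes 19 of 22 and 18 of 22 lower with 1 higher. After median-of-ratios scaling, complex I assembly factors had 9 lower and 1 higher in *Mirc11-/-* cells and 6 lower and 1 higher in wildtype cells. Ribosomal proteins then had 36 lower and 12 higher in *Mirc11-/-* cells and 36 lower and 11 higher in wildtype cells, and import channels 11 lower and 3 higher and 13 lower and 2 higher. Of all genes, that scaling called 37.9% lower in *Mirc11-/-* and 37.5% lower in wildtype cells, as above. Of 12 genes for carriers, porins and chaperones, 10 were lower and 2 higher in each genotype, and under that scaling 10 were lower in *Mirc11-/-* cells and 9 in wildtype cells. Among them the ADP/ATP carrier *Slc25a5* (-1.03 and -1.16 in *Mirc11-/-* and wildtype cells) and the uncoupling protein gene *Ucp2* (-1.56 and -1.77) fell, and the porin *Vdac1* rose (0.32 and 0.49).

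Complex IV assembly factors were mixed. Their counts stand beside 54.0% of all genes called lower in *Mirc11-/-* and 52.0% in wildtype cells, and 37.9% and 37.5% after median-of-ratios scaling. In *Mirc11-/-* cells 14 of 22 were lower and 4 higher, in wildtype cells 12 lower and 4 higher, and after median-of-ratios scaling 8 lower and 5 higher and 7 lower and 6 higher. The copper carriers *Sco2* and *Cox17* parted, *Sco2* with -1.57 and -1.45 and *Cox17* with 0.64 and 0.71 in *Mirc11-/-* and wildtype cells. Of 12 ubiquinone synthesis genes, 7 were lower and 2 higher in *Mirc11-/-* cells and 5 lower and 1 higher in wildtype cells, and median-of-ratios scaling turned their median to 0.03 in both. Of 4 complex III assembly factors 1 was lower (*Bcs1l*) and 1 higher (*Uqcc1*) in each genotype (1 lower and 3 higher in wildtype cells after median-of-ratios scaling), and of 2 for complex II *Sdhaf1* was lower, in each genotype. After median-of-ratios scaling *Sdhaf1* did not pass in *Mirc11-/-* cells, where 0 of the 2 complex II factors were lower and 1 higher. In wildtype cells 1 was then lower and 1 higher.

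Among other electron donors and carriers, 4 of 7 were lower and 2 higher in each genotype, beside 54.0% of all genes lower in *Mirc11-/-* and 52.0% in wildtype cells. *Cycs*, which codes for the cytochrome c that links complexes III and IV, rose by 0.74 in *Mirc11-/-* and 0.57 in wildtype cells, and *Gpd2*, which feeds electrons from glycerol-3-phosphate to ubiquinone, by 1.49 and 1.59. *Etfb*, which carries electrons from fatty acid oxidation, fell (-1.30 and -1.50). Of 4 genes for assembly and inhibition of the ATP synthase, 3 were lower and 0 higher in *Mirc11-/-* cells and 3 lower and 1 higher in wildtype cells, and by median-of-ratios scaling or quantile normalization 2 were lower and 1 higher in each genotype. The gene called higher was *Atpaf2*, an assembly factor (0.02 in *Mirc11-/-* and 0.16 in wildtype cells as deposited, 0.26 and 0.37 by median-of-ratios). In this list *Atpif1*, the inhibitor of the reverse reaction of the ATP synthase, changed by -1.64 in *Mirc11-/-* and -1.56 in wildtype cells. From a separate list of chain proteins related to *Ndufa4* or linked to hypoxia, *Higd1a* changed by 1.55 in *Mirc11-/-* and 1.66 in wildtype cells. *Irg1*, which makes itaconate, an inhibitor of succinate dehydrogenase, rose by 3.85 in *Mirc11-/-* and 3.84 in wildtype cells. Of subunits with other symbols, *Cyc1* (-0.40 and -0.32) and *2010107E04Rik*, named Atp5mpl in RefSeq (-0.70 and -0.64), were lower in both genotypes, of which *Cyc1* did not pass after median-of-ratios scaling. The 13 subunits encoded by mitochondrial DNA were not in the table under the symbols searched, so they were not analysed here.

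Of 16 tested regulators of mitochondrial genes, 10 were lower and 4 higher in *Mirc11-/-* cells and 11 lower and 2 higher in wildtype cells. Of all genes, 54.0% were lower and 26.0% higher in *Mirc11-/-* cells and 52.0% lower and 26.6% higher in wildtype cells. *Myc* (-3.56 and -3.92 in *Mirc11-/-* and wildtype cells) and *Tfb2m*, a mitochondrial transcription factor (-0.86 and -0.61), had the smallest p among those that fell. *Hif1a*, the oxygen-regulated factor (1.90 and 1.79), and *Esrra*, which codes for ERR alpha (0.65 and 0.50), rose in both genotypes. After median-of-ratios scaling, 6 regulators were lower and 4 higher in each genotype. That scaling called 37.9% of all genes lower and 40.2% higher in *Mirc11-/-* cells, and 37.5% and 39.6% in wildtype cells. *Gabpa*, which codes for the factor of the ETS letters, changed by -0.17 in wildtype cells, and by 0.04 under that scaling. Its exons share 182 bases with those of *Atp5j* on the opposite strand, and the strand setting is unknown, so reads may be shared.

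Between genotypes, few of the 78 genes passed. Some marker sums parted by genotype: in M1, neutrophil markers summed to 28.4 to 32.2 FPKM in *Mirc11-/-* and 42.2 to 74.7 FPKM in wildtype, endothelial markers to 13.1 to 15.3 FPKM and 8.60 to 11.0 FPKM, and fibroblast markers to 0.903 to 1.90 FPKM and 0.419 to 0.676 FPKM. The neutrophil sum was mostly 1 gene, *S100a8*, with a mean of 28.5 FPKM in *Mirc11-/-* M1 and 56.8 FPKM in wildtype M1. In M2, endothelial markers summed to 7.25 to 9.10 FPKM in *Mirc11-/-* and 5.06 to 7.16 FPKM in wildtype, B cell markers to 1.32 to 1.76 FPKM and 0.488 to 1.12 FPKM, and T and NK and erythroid markers, all under 1 FPKM, were lower in every *Mirc11-/-* library than in any wildtype library. Their part in the genotype values was not tested. In M1, limma called 0 genes lower and 1 higher in *Mirc11-/-* than in wildtype, where 7.96% of all genes tested were called lower and 5.99% higher; at an unadjusted p under 0.05 there were 2 lower and 3 higher. In M2 it called 0 lower and 1 higher, beside 2.09% and 2.50% of all genes called lower and higher, and 1 lower and 3 higher unadjusted. The median difference, *Mirc11-/-* minus wildtype, was -0.00 in M1 and 0.04 in M2, and the median SE of a gene was 0.0765. Single genes ranged from -0.17 (*Ndufs1*) to 0.29 (*Ndufs4*) in M1 and from -0.25 (*Cox6a2*) to 0.42 (*Ndufb7*) in M2. All *Mirc11-/-* M1 libraries lay below all wildtype M1 libraries for 2 of the 78 genes and above them for 2. Over all genes tested, 18.8% lay below and 12.7% above in this way. In M2, 0 of the 78 genes lay below and 4 above, beside 11.8% and 11.9% of all genes. In complex I, 26 of 36 genes lay below 0 in M1 (median -0.07, beside -0.02 over all genes tested). Below 0 in complexes II to V were 1 of 4, 4 of 8, 4 of 13 and 5 of 17. Single libraries moved many members together, as above, and the part of this in the complex I values was not tested. The all-gene split in M1 moved with the scaling, with 807 genes lower and 607 higher as deposited, 630 and 782 by median-of-ratios and 549 and 645 by quantile normalization.

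The gene called in M1 was *Ndufs4*, with 27.3 ± 0.912 FPKM in *Mirc11-/-* and 22.2 ± 1.16 FPKM in wildtype (SD, n = 3 each). Its lowest *Mirc11-/-* M1 library (26.5 FPKM) was above its highest wildtype M1 library (23.5 FPKM). The difference was 0.29 (SE 0.057, limma adjusted p = 0.00627), and adjusted p ran from 0.00396 to 0.276 over the alternatives. The highest came with the 6 libraries whose title and treatment field agree, where the difference was 0.18. In M2 the 3 *Mirc11-/-* libraries (19.9, 22.2 and 19.7 FPKM) were again above the 3 wildtype ones (17.6, 18.7 and 18.9 FPKM), but the difference of 0.15 did not pass (adjusted p = 0.169).

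The gene called in M2 was *Ndufb7*, an accessory subunit of the membrane arm. It had 195, 211 and 182 FPKM in *Mirc11-/-* M2, against 137, 154 and 147 FPKM in wildtype M2, and the groups did not overlap. In M1 it had 94.9, 102 and 112 FPKM in *Mirc11-/-* and 112, 97.6 and 95.0 FPKM in wildtype, where they did. The M2 difference was 0.42 (SE 0.083, limma adjusted p = 0.0144). It did not pass without library Ako2271M2 (adjusted p = 0.0562), Ako2272M2 (0.0660) or Wt2260M2 (0.0660), while its size stayed between 0.37 and 0.57 over the alternatives. *Ndufb7* lies on chromosome 8, as does the deleted cluster, with 22 protein-coding genes between them in GRCm38.p6. The other 2 chromosome 8 genes, *Ndufa13* and *Cox4i1*, differed by -0.14 and 0.04 in M1 and by -0.02 and 0.04 in M2, none called.

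**Figure D4:**
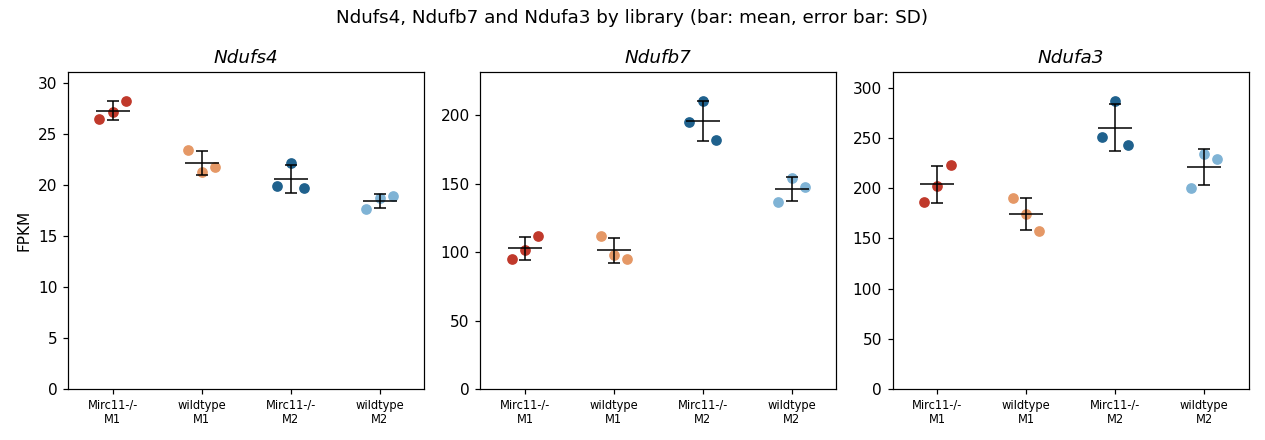
FPKM (vertical axes, from 0) of *Ndufs4*, *Ndufb7* and *Ndufa3* by library in *Mirc11-/-* M1, wildtype M1, *Mirc11-/-* M2 and wildtype M2; points are libraries, bars means and error bars SD (n = 3). *Ndufs4* is higher in *Mirc11-/-* than in wildtype libraries of the same treatment, *Ndufb7* libraries part by genotype in M2 and overlap in M1, and *Ndufa3* overlaps between genotypes in M1 but not in M2.

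For the difference between the M1 and M2 effects of genotype, limma called 0 of the 78 genes on the deposited scale and 1 (*Ndufb7*) by quantile normalization. The deposited scale gave that 0 beside 0.917% of all genes lower and 0.937% higher, with 2 lower and 0 higher at an unadjusted p under 0.05. *Ndufb7* came closest, at -0.40 (SE 0.118, limma adjusted p = 0.122, and 0.0272 with a difference of -0.43 by quantile normalization), and for *Ndufs4* the difference was 0.14 (adjusted p = 0.504). In complex I, 33 of 36 genes lay below 0 in this difference (median -0.10, beside -0.03 over all genes tested). After median-of-ratios scaling 28 did (median -0.06). In complexes II to V the deposited scale had 1 of 4, 6 of 8, 9 of 13 and 11 of 17 below 0, and the cause was not tested. Around the complexes, the M1 comparison of *Mirc11-/-* with wildtype called 2 of 22 complex IV assembly factors lower and 3 higher, 1 of 15 complex I assembly factors lower, 3 of 77 ribosomal proteins lower and 2 higher, 2 of 22 import channels lower, 1 of 12 ubiquinone synthesis genes higher and 1 of 16 regulators lower, against the 7.96% lower and 5.99% higher of all genes given above. Among these, the copper protein gene *Sco1* was higher in *Mirc11-/-* M1 than in wildtype M1 (0.46, adjusted p = 0.00194) and *Tfb2m* lower (-0.29, adjusted p = 0.00233).

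The cluster's mature miRNAs are shown with the seed, bases 2 to 8, in capitals, since a deleted miRNA's direct targets would carry letters that pair with it. Their sequences are from RefSeq, GRCm38.p6, chromosome 8, plus strand. Each seed is its own, though those of miR-23a-3p and miR-27a-3p begin alike.
mmu-miR-23a-3p: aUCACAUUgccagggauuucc
mmu-miR-27a-3p: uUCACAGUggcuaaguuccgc
mmu-miR-24-3p: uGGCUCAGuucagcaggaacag

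Seed matches were AATGTGA for miR-23a-3p, ACTGTGA for miR-27a-3p and CTGAGCC for miR-24-3p, searched on the mRNA strand in the longest annotated 3' UTR. Of the 78 genes, 16 (20.5%) held at least 1 match, beside 40.2% of 9438 tested genes. The 3' UTRs of the 78 were short, with a median of 196 bases against 1136 bases over the tested genes. By miRNA the shares were 6.41%, 7.69% and 8.97% for miR-23a, miR-27a and miR-24, beside 16.3%, 16.7% and 18.8% of tested genes.

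*Ndufs4* was the member with most matches, 3 in 968 bases, and *Ndufa3* held a match in 235 bases. The sites are printed with the matched letters in capitals.
*Ndufs4*, miR-27a-3p match from base 27: acatctctgcttgACTGTGActg
*Ndufs4*, miR-23a-3p match from base 96: taatctcctaataAATGTGAcct
*Ndufs4*, miR-23a-3p match from base 240: cttagagtttaccAATGTGAgtg
*Ndufa3*, miR-23a-3p match from base 49: gctctccaataaaAATGTGAaaa

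*Ndufa3* differed by 0.23 in M1 and by 0.23 in M2, *Mirc11-/-* over wildtype, and was called in neither (limma adjusted p = 0.139 and 0.206). It had 186.5, 202 and 223 FPKM in *Mirc11-/-* M1 and 190, 174 and 158 FPKM in wildtype M1, which overlapped, and 251.5, 287 and 243 FPKM in *Mirc11-/-* M2 and 200.3, 234 and 229 FPKM in wildtype M2, which did not. Genes with and without a match had medians close to each other. In M1 the median difference, *Mirc11-/-* minus wildtype, was 0.01 for the 16 genes with a match and -0.00 for the 62 without, and in M2 it was 0.06 and 0.04. *Ndufa12* held a miR-24-3p match and differed by -0.17 in M1, and *Cox6a2* held a miR-23a-3p match and differed by -0.25 in M2. *Ndufb7* held none.

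**Figure D5:**
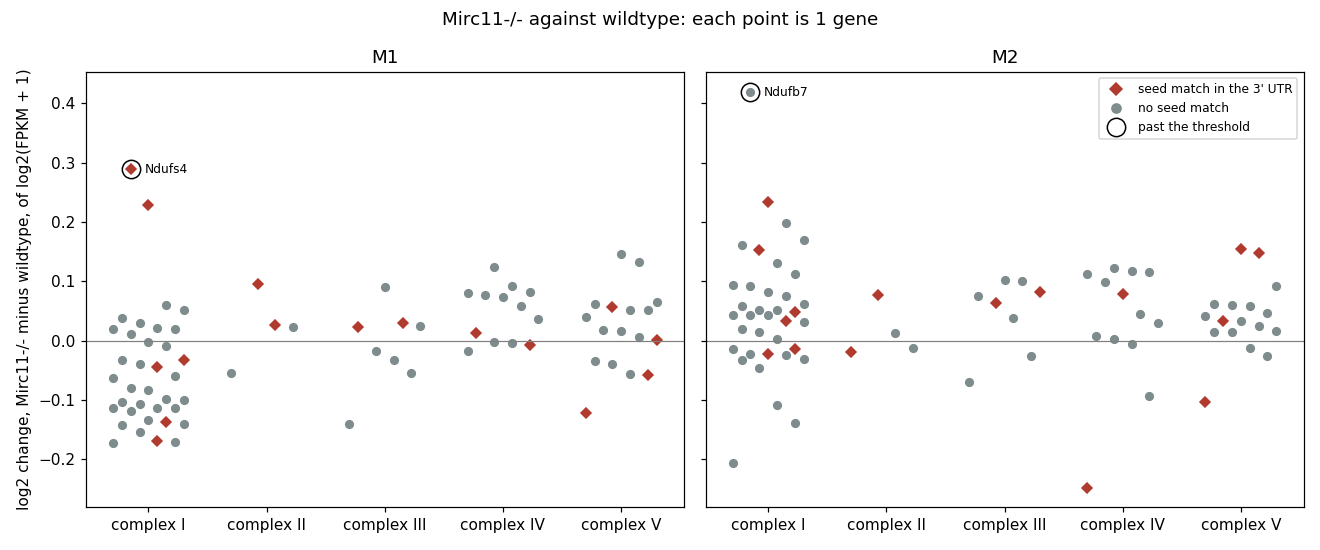
Difference of log2(FPKM + 1), *Mirc11-/-* minus wildtype, of each gene by complex in M1 (left) and M2 (right); red diamonds hold a seed match of the cluster's miRNAs in the 3' UTR, grey points hold none and circles mark calls. Points spread around 0 in both panels between -0.25 and 0.42, and the circled genes are *Ndufs4* in M1 and *Ndufb7* in M2.

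The strand setting of the authors' quantification is not given in the sources used here, so reads of overlapping genes cannot be told apart. Exons of 22 of the 78 genes overlap another gene, such as *Uqcrc2* with *Pdzd9* (504 bases), *Ndufa13* with *Tssk6* (375 bases) and *Cox6a2* with *Itgad* (70 bases), each on the opposite strand. *Ndufs4*, *Ndufb7*, *Ndufa12*, *Sdha* and *Atp5g2* overlap none. Many of these genes also have processed pseudogenes, with which reads may have been shared.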

How the data were processed

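The authors deposited FPKM per gene in 1 table of 12 libraries, and the labels name STAR 2.5.1, Cufflinks, DESeq and mm9, while the annotation, any filter and the strand setting are not given in the sources used here. FPKM are normalized to length and library, so depth is unknown, and an exact 0 can be a failed estimate. The 2 deposited tables of the authors' comparisons (log2 fold change and adjusted p per transcript) were not used.

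Group means of log2(FPKM + 1) were fitted with limma 3.58.1 (R 4.3.3) to all 12 libraries in 4 groups taken from the titles, for the 10137 of 23863 genes with a mean of at least 1 FPKM, with an intensity trend. Tests were two-sided, adjusted by Benjamini-Hochberg within each of 5 comparisons at 0.05. The pseudocount understates changes of low genes. The fit was tested on simulated data. Alternatives were a pseudocount of 0.1, no filter, a minimum of 5 FPKM, median-of-ratios scaling, quantile normalization, only the groups compared, each library left out, only the 6 libraries whose labels agree, a replicate block, and no trend.

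The members and lists were chosen with earlier results of these data known. Named were up to 3 genes per complex and direction with the largest wildtype change among calls without overlap, genes called between genotypes (up to 6 per direction), chromosome 8 genes, isoform sets, the highest and lowest gene of each complex, and up to 2 genes per direction of each list. *Ndufs3*, *Ndufs7*, *Uqcrfs1*, *Gabpa* and the genotype values of *Ndufa3*, *Ndufa12* and *Cox6a2* were chosen after their values were seen. Promoters and miRNAs are RefSeq GRCm38.p6 and 3' UTRs and exons GENCODE vM21, another build than the authors' mm9, so no mm9 position is given.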

Additional observations from a re-analysis of the deposited data

How the results depend on the processing

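The counts of genes lower in M1 than in M2 were within 1.5 times the values above under every alternative, except in wildtype cells after median-of-ratios scaling (46 lower, 3 higher, median -0.28) and with the 6 libraries on whose treatment the labels agree (45 lower, 3 higher, median -0.33), which leave 1 wildtype library per treatment, assumed to vary like the other groups. Quantile normalization called 3 genes higher in wildtype and 2 in *Mirc11-/-* cells, median-of-ratios scaling 2 in *Mirc11-/-* cells (median -0.28), and the 6 agreeing libraries gave *Mirc11-/-* cells a median of -0.64. Leaving out 1 library gave 73 to 75 genes lower and 1 to 2 higher in *Mirc11-/-* cells (2 without Ako2272M2), with medians from -0.60 to -0.47, and 69 to 74 lower and 1 higher in wildtype cells, with medians from -0.54 to -0.47. For *Mirc11-/-* against wildtype in M1, 0 to 1 gene was lower and 1 higher when a library was left out (*Ndufa12* without Ako2273M1, *Ndufs1* without Ako2272M2), with medians from -0.05 to 0.04. Quantile normalization called 1 lower there (*Ndufv3*), and the agreeing libraries 1 lower (*Ndufa12*) and 0 higher, with a median of -0.18. In M2, 0 to 1 gene was higher when a library was left out, with medians from -0.01 to 0.08, and the agreeing libraries gave a median of 0.14. For the difference between the genotype effects, quantile normalization called 1 gene lower (*Ndufb7*, adjusted p = 0.0272 by limma), the agreeing libraries gave a median of -0.30, and leaving out a library gave medians from -0.09 to 0.00.

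Of 1290 values of named genes under the alternatives, 1234 kept their direction and side of the threshold, 32 no longer passed, 6 newly passed and 18 changed sign; the cause was not tested. Signs changed in wildtype M1 against M2 after median-of-ratios scaling for *Ndufa11* (0.0092), *Sdhd* (0.023) and *Uqcrc2* (0.032) and with the agreeing libraries for *Ndufa11* (0.025). For *Mirc11-/-* against wildtype in M1, *Cox4i1* turned to -0.043 by quantile normalization and -0.14 with the agreeing libraries and ran from -0.022 to 0.097 when a library was left out, and *Ndufb7* turned to -0.0061 and -0.19 and ran from -0.043 to 0.091. In M2, *Ndufa13* turned to 0.068 with the agreeing libraries and ran from -0.10 to 0.020 when a library was left out, and *Cox4i1* ran from -0.010 to 0.10. None of these genotype values was called.

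With the title number as a replicate block, 74 genes were lower and 1 higher in *Mirc11-/-* cells, 71 lower and 1 higher in wildtype cells, and 0 differed in the genotype effect. Libraries with the same number did not deviate together (correlations of 0.06, -0.18 and -0.29 for *Mirc11-/-* and -0.06, 0.21 and 0.11 for wildtype), so the number was not taken as a pairing. The groups of 3 libraries, the unknown depth and the conflict between title and treatment field limit these results.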
